A study of Danio rerio with 6 samples.

Results

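The genes described are 8 genes of the larval heart, chosen by symbol from the 31901 genes of the deposited table. They are the myosin genes myh6, myh7 and myl7, the natriuretic peptide genes nppa and nppb, and the transcription factor genes nkx2.5, gata4 and tbx5a. Each symbol had 1 gene identifier, and all 8 were among the 21302 genes tested. RNA-seq was done on 3 wild-type pools of zebrafish larvae and on 3 pools of dscaml1-/- larvae, all progeny of heterozygous parents and all aged 3.5 to 4 days post-fertilization (dpf). Each pool held 6 to 11 larvae, and no treatment was given to either genotype. The mutants carry a small frame-shifting deletion in dscaml1, a gene for a neuronal cell surface adhesion protein. The dscaml1 transcript itself stood at 368 ± 31.4 normalized counts in wild-type and 363 ± 32.8 in mutant pools (SD, n = 3 each), and since a frame-shifting allele need not lower a transcript, this level does not check the genotype labels. The labels give the tissue as the whole animal and the methods describe the anterior part of each larva, which holds the heart.

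The zebrafish heart has a single atrium and a single ventricle and beats from the first day of life. Its muscle cells contract through myosin, made of heavy chains that differ between the chambers and light chains that are largely shared. Natriuretic peptides are hormones released by heart muscle that act on vessels and kidney, and in mammals their genes are known for responding to load on the heart wall. NK, GATA and T-box transcription factors act together to set up the heart muscle program, and in mammals they bind near several of the genes described here.

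In replicates 1 and 3, myh6, myh7, gata4 and tbx5a were lower in both mutant libraries than in both wild-type libraries, whereas nppa and nppb were higher in both. With only 2 libraries against 2, 44.1% of all genes tested did not overlap in this way, 21.3% with the mutants lower and 22.8% with them higher. In replicate 2 the counts of the first 4 genes were nearly the same in both genotypes. None of the 8 genes was called at an adjusted p under 0.05 (Benjamini-Hochberg) in limma, a linear model on log2(normalized count + 1) with terms for genotype and for replicate 2. A normalized count is a read count after the authors scaled each library by its size factor. Over all genes tested, 0.0986% were called, 0.0235% higher and 0.0751% lower. At an unadjusted p under 0.05 were nppa and nppb, with higher means in mutants, and myh6, myh7, gata4 and tbx5a, with lower means. That makes 6 of the 8 genes, beside 14.0% of all genes tested (6.10% higher and 7.90% lower). The 8 genes were chosen with earlier results of these data known. They are not separate observations, since some were strongly correlated over the 6 libraries (0.97 for myh6 with myh7, 0.92 for gata4 with tbx5a). edgeR and DESeq2 on the recovered reads also called 0 of the 8, and each had 2 of them higher and 3 lower at an unadjusted p under 0.05. Of the 21302 genes tested, edgeR called 4 higher and 14 lower. DESeq2 called 193 and 388, and it gave no adjusted p for 2478 of the genes. At the unadjusted p, edgeR had 1383 higher and 1589 lower, and DESeq2 had 1050 and 1528. In limma the count among the 8 genes was 2 higher and 4 lower. That count became 2 and 0 without wild-type replicate 1 or wild-type replicate 3, and 1 and 0 with no replicate term. Leaving out replicate 3 of the mutants gave 1 and 0, and leaving out their replicate 1 gave 2 and 2. Over the 21302 genes tested, the main fit had 1299 higher and 1683 lower at that p. Without wild-type replicate 1 there were 934 and 1219, and without wild-type replicate 3 there were 798 and 1113. Without mutant replicate 3 there were 993 and 1292, and without mutant replicate 1 there were 1288 and 1780. With no replicate term there were 382 and 409. Among the 8, the higher genes were not always nppa and nppb. Without wild-type replicate 1 they were nppa and myl7 (log2 fold change of myl7 0.40, unadjusted p = 0.0186 from limma). nppb then had an unadjusted p of 0.0711 from limma. With 3 pools per genotype, an exact two-sided permutation test on 1 gene cannot give a p below 0.1.

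**Figure D1:**
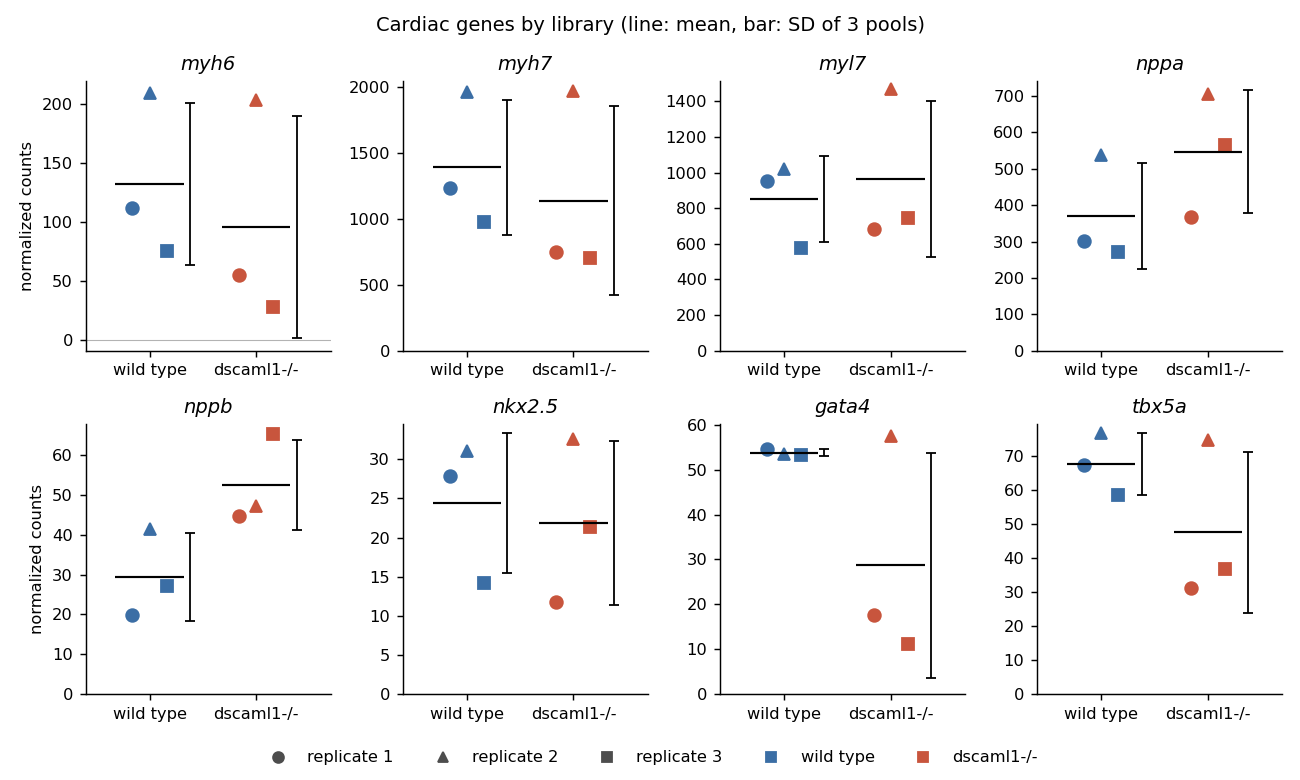
Normalized counts of the 8 genes (y axes) in each library by genotype (x axes), with the replicate number as the symbol, the mean of 3 pools as a line and the SD as a bar. In gata4 the 3 wild-type libraries sit between 53.2 and 54.6, the mutant libraries of replicates 1 and 3 at 17.5 and 11.0, and the mutant library of replicate 2 at 57.5.

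The libraries held 18725190 to 23516860 reads, with the mutant libraries all below the wild-type ones. The first principal component, with 70.9% of the variance, separated the replicate 2 pools of both genotypes from the remaining 4. The summed counts of 9 embryonic red blood cell genes were 94337 and 75690 in the replicate 2 libraries of wild type and mutant, and 9542 to 19858 in the other 4. The summed counts of 8 intestinal genes were 57918 and 25252 in replicate 2 and 79075 to 134092 in the others. The labels give the replicate 2 pools no other age, clutch or date, and the part of these differences in the results on the heart genes was not tested. Values are therefore given by replicate number throughout. In bulk samples, fewer cells of a type and less RNA per cell cannot be told apart.

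myh6 encodes the atrial myosin heavy chain of the zebrafish heart (ENSDARG00000090637, chromosome 20 from 53577502 to 53583436, with all positions on GRCz11). It had 112, 209 and 75.7 normalized counts in wild-type pools 1, 2 and 3, against 55.2, 204 and 28.0 in mutant pools 1, 2 and 3. The replicate 2 libraries were the highest of each genotype and nearly equal, and the genotypes overlapped only through them. The means were 132 ± 69.1 for wild type and 95.6 ± 94.6 for the mutants (SD, n = 3 pools each), and the log2 fold change was −0.82 (standard error 0.34, 95% interval −1.60 to −0.03, adjusted p = 0.341 from limma). The mutant minus wild-type difference in log2 was −1.01 in replicate 1, −0.04 in replicate 2 and −1.40 in replicate 3. Without mutant replicate 3 the log2 fold change was −0.43, and without wild-type replicate 1 it was −0.55.

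myh7 encodes the ventricular myosin heavy chain, long known in zebrafish as vmhc (ENSDARG00000079564, chromosome 2 from 24252987 to 24270062). The name is that of the deposited table, whereas the gene name reference pairs this identifier with the human-style symbol MYH6, so the chamber given here rests on the table's name. It had 1230.5, 1962 and 973 normalized counts in wild-type pools 1, 2 and 3, against 745, 1966 and 702 in mutant pools 1, 2 and 3. Both replicate 2 libraries had about the same count, and in replicates 1 and 3 the mutant libraries lay below both wild-type libraries. The means were 1388 ± 513 and 1138 ± 718 (SD, n = 3 pools each), which gave a log2 difference of −0.40 (standard error 0.15, 95% interval −0.76 to −0.04, adjusted p = 0.317 from limma). By replicate number the log2 difference was −0.72, 0.00 and −0.47. The related gene myh7l lies 4.23 kb from myh7 on the same chromosome, and reads of such similar neighbours can be split between them, so both counts are uncertain to that extent. myh7l had 626, 1172 and 575 normalized counts in wild type and 240.4, 1321 and 389 in mutants, a log2 fold change of −0.59 (adjusted p = 0.371 from limma).

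myl7 encodes a regulatory myosin light chain found in the muscle cells of both chambers (ENSDARG00000019096, chromosome 8 from 40457107 to 40464935). It had 954, 1022 and 574 normalized counts in wild-type pools 1, 2 and 3, against 681, 1467 and 746 in mutant pools 1, 2 and 3. The genotypes overlapped in part, with mutant replicate 2 the highest library and wild-type replicate 3 the lowest. The means were 849.9 ± 241 and 964 ± 436 (SD, n = 3 pools each), which gave a log2 difference of 0.14 (standard error 0.21, 95% interval −0.34 to 0.62, adjusted p = 0.813 from limma). The interval holds changes of either sign. The sign also turned when replicate 2 was left out (−0.05) or wild-type replicate 3 was left out (−0.02). By replicate number the log2 difference was −0.49, 0.52 and 0.38.

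nppa encodes the precursor of atrial natriuretic peptide (ENSDARG00000052960, chromosome 8 from 48613040 to 48617664). It had 302, 538 and 272 normalized counts in wild-type pools 1, 2 and 3, against 368, 706 and 566 in mutant pools 1, 2 and 3. Each mutant library lay above the wild-type library of the same number, although wild-type replicate 2 stood above mutant replicate 1. The means were 371 ± 146 and 547 ± 169.7 (SD, n = 3 pools each), which gave a log2 difference of 0.58 (standard error 0.17, 95% interval 0.17 to 0.98, adjusted p = 0.221 from limma). By replicate number the log2 difference was 0.29, 0.39 and 1.05. The adjusted p of nppa was 0.0830 with DESeq2 on the recovered reads, the lowest for the genotype difference of any of the 8 genes in any fit that was run, and its highest was 0.9999 in limma with no replicate term.

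nppb encodes the precursor of B-type natriuretic peptide and lies 2.495 kb from nppa (ENSDARG00000052958, chromosome 8 from 48609521 to 48610544). nppb had 19.8, 41.5 and 27.2 normalized counts in wild-type pools 1, 2 and 3, against 44.8, 47.3 and 65.5 in mutant pools 1, 2 and 3. The lowest mutant pool stood above the highest wild-type pool, and nppb was the only one of the 8 genes for which the genotypes did not overlap. Of all genes tested, 5.07% had non-overlapping pools with the mutants higher and 4.55% with the mutants lower, 9.62% in all. The means were 29.5 ± 11.1 and 52.5 ± 11.3 (SD, n = 3 pools each), which gave a log2 difference of 0.85 (standard error 0.29, 95% interval 0.18 to 1.53, adjusted p = 0.268 from limma). By replicate number the log2 difference was 1.14, 0.18 and 1.24. These values rest on 34 to 89 reads per library.

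nkx2.5 encodes a homeodomain factor of the early heart field that is also known in the pharyngeal arches (ENSDARG00000018004, chromosome 14 from 24241241 to 24244034). It had 27.9, 31.1 and 14.2 normalized counts in wild-type pools 1, 2 and 3, against 11.7, 32.6 and 21.3 in mutant pools 1, 2 and 3. The genotypes overlapped, and the lowest library of each was a different replicate number. The means were 24.4 ± 8.99 and 21.9 ± 10.4 (SD, n = 3 pools each), which gave a log2 difference of −0.19 (standard error 0.35, 95% interval −0.998 to 0.62, adjusted p = 0.853 from limma). These values rest on 18 to 54 reads per library, and the data do not tell apart the changes within this interval. Left out in turn, wild-type replicate 1 and mutant replicate 1 each turned the sign, to 0.11 and 0.08.

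gata4 encodes a zinc finger factor that is needed in heart muscle and is also known in the liver and gut (ENSDARG00000098952, chromosome 20 from 52952116 to 52967878). gata4 had 54.6, 53.6 and 53.2 normalized counts in wild-type pools 1, 2 and 3, against 17.5, 57.5 and 11.0 in mutant pools 1, 2 and 3. The 3 wild-type libraries were nearly equal, mutant replicate 2 was slightly above them, and the other mutant libraries were far below all of them. The means were 53.8 ± 0.722 and 28.7 ± 25.1 (SD, n = 3 pools each), which gave a log2 difference of −1.22 (standard error 0.41, 95% interval −2.17 to −0.27, adjusted p = 0.261 from limma). By replicate number the log2 difference was −1.58, 0.10 and −2.17, and the 2 low libraries rest on 27 and 15 reads. Without replicate 2 of both genotypes the log2 fold change was −1.88 (unadjusted p = 0.000896, adjusted p = 0.207 from limma).

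tbx5a encodes a T-box factor of the heart that is also known in the pectoral fin and the dorsal retina (ENSDARG00000024894, chromosome 5 from 72264192 to 72289648). It had 67.4, 76.7 and 58.5 normalized counts in wild-type pools 1, 2 and 3, against 31.2, 74.7 and 36.8 in mutant pools 1, 2 and 3. Mutant replicate 2 lay within the wild-type range and the other mutant libraries lay below it. The means were 67.5 ± 9.07 and 47.6 ± 23.7 (SD, n = 3 pools each), which gave a log2 difference of −0.59 (standard error 0.23, 95% interval −1.12 to −0.06, adjusted p = 0.310 from limma). By replicate number the log2 difference was −1.09, −0.04 and −0.66.

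**Figure D2:**
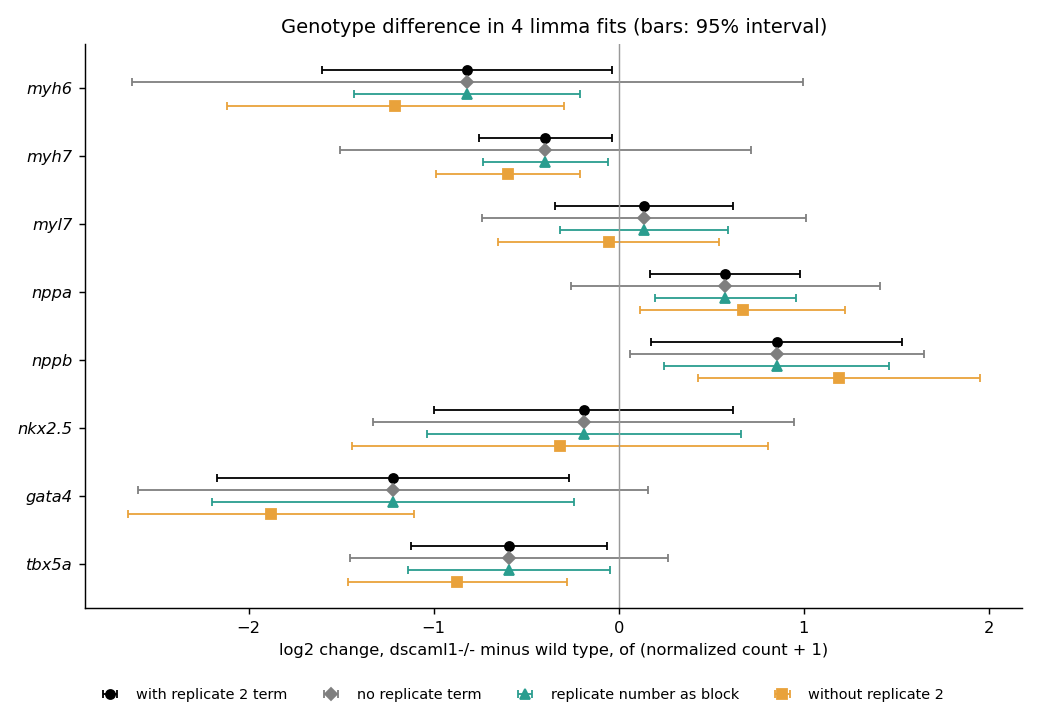
Log2 change of normalized count + 1, mutant minus wild type (x axis), for each of the 8 genes (y axis) in 4 limma fits, with 95% intervals as bars. gata4 was lowest at −1.22 in the fit with the replicate 2 term and nppb highest at 0.85, and the fit without replicate 2 moved them to −1.88 and 1.19.

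Whether the genotype difference itself differed between replicate 2 and replicates 1 and 3 was asked with an interaction term in limma. In gata4 the difference was higher in replicate 2 by 1.98 on the log2 scale (standard error 0.53, 95% interval 0.70 to 3.25, unadjusted p = 0.00846, adjusted p = 0.9999 from limma). No other of the 8 genes had an unadjusted p under 0.05 for the interaction, with log2 values from −1.01 for nppb to 1.17 for myh6. limma called 0 of all genes tested for the interaction, and 751 (3.53%) had an unadjusted p under 0.05, 1.05% with a higher and 2.47% with a lower difference in replicate 2. Each genotype has 1 library of replicate 2, so this test rests on a single pair. In replicates 1 and 3 alone, 4 of the 8 genes had both mutant libraries below both wild-type libraries and 2 had both above. Of all genes tested, 21.3% had both below and 22.8% both above.

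**Figure D3:**
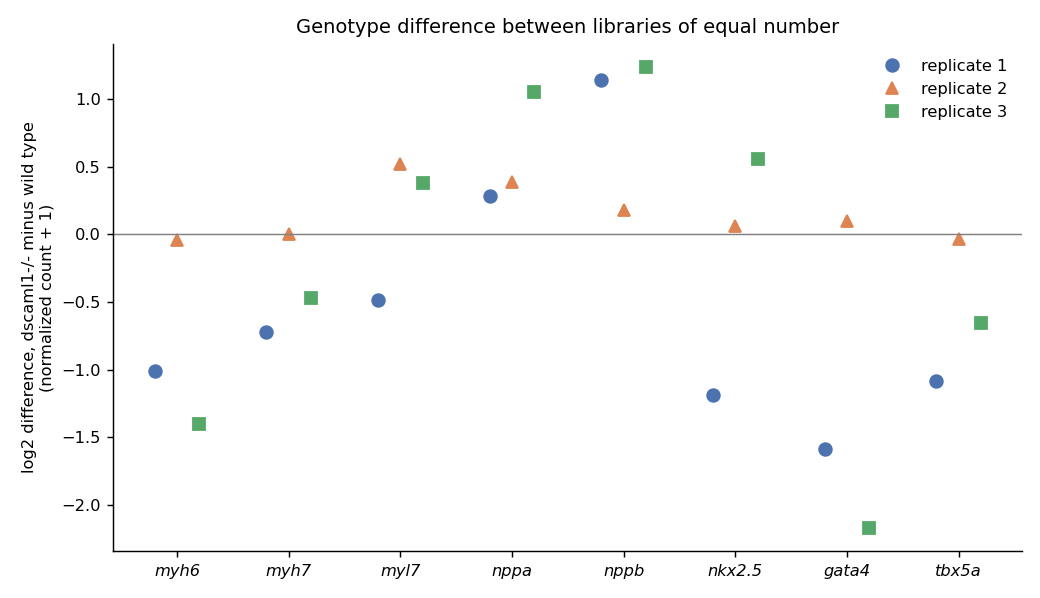
Log2 difference of normalized count + 1 between the mutant and the wild-type library of the same replicate number (y axis) for each of the 8 genes (x axis). In replicate 2 the differences of myh6, myh7, nkx2.5, gata4 and tbx5a lie between −0.04 and 0.10, whereas in replicates 1 and 3 gata4 lies at −1.58 and −2.17.

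Between replicate 2 and replicates 1 and 3, 4 of the 8 genes differed with limma and all 4 were higher in replicate 2, while 31.5% of all genes tested were called, 13.7% higher there and 17.8% lower. myh6 was higher by 1.76 on the log2 scale (standard error 0.36, adjusted p = 0.00903 from limma), which was the largest of the 8. myh7 was higher by 1.14 (standard error 0.16, adjusted p = 0.00217 from limma). nppa and myl7 were higher by 0.77 and 0.75 (adjusted p = 0.0175 and 0.0350 from limma). The other 4 genes had log2 values from 0.31 for nppb to 0.98 for gata4 and were not called. In 5 of the 8 genes both replicate 2 libraries lay above the other 4, namely myh6, myh7, myl7, nkx2.5 and tbx5a, beside 24.6% of all genes tested (and 26.1% with both below). The log2 values of myh6, myh7, myl7, nppa, nkx2.5 and tbx5a for replicate 2 were larger in size than those for genotype. Those of nppb and gata4 were smaller, and this contrast was not tested itself.

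The count of each gene was then set against that of myl7 in the same library, a ratio in which the size factor cancels and which relates the other genes to a marker of all heart muscle cells. Relative to myl7, the highest mutant pool lay below the lowest wild-type pool for gata4 and for tbx5a, replicate 2 included. In replicate 2, however, myl7 itself was higher in the mutant (1467 against 1022 in wild type). The counts of gata4 (57.5 against 53.6) and tbx5a (74.7 against 76.7) were nearly equal there. How many of all genes would fail to overlap relative to myl7 was not computed. gata4 stood at 5.72%, 5.25% and 9.27% of the myl7 count in wild-type pools 1, 2 and 3, against 2.58%, 3.92% and 1.48% in mutant pools 1, 2 and 3. Its log2 ratio was −3.94 ± 0.44 for wild type and −5.34 ± 0.70 for the mutants (SD, n = 3), a difference of −1.41 (exact two-sided permutation p = 0.1, the smallest the design allows, and 0.32 adjusted over 8 ratios). tbx5a stood at 7.06%, 7.51% and 10.2% of myl7 in wild type, and at 4.58%, 5.09% and 4.94% in mutants. Its log2 ratio was −3.62 ± 0.28 and −4.36 ± 0.08 (SD, n = 3), a difference of −0.74 (exact permutation p = 0.1, 0.32 adjusted over 8 ratios).

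myh6 stood at 11.8%, 20.5% and 13.2% of myl7 in wild-type pools 1, 2 and 3, against 8.11%, 13.9% and 3.75% in mutants. The mutant library was the lower one at each replicate number, but mutant replicate 2 lay above 2 wild-type libraries (difference in log2 −0.97, exact permutation p = 0.3). myh7 stood at 129%, 192% and 169.5% of myl7 in wild type and at 109%, 134% and 94.2% in mutants, again lower at each replicate number (difference −0.53, exact permutation p = 0.2). nppa and nppb had higher mean ratios in mutants, by log2 values of 0.44 and 0.74 (exact permutation p = 0.2 and 0.3), but in replicate 2 both ratios were lower in the mutant. nkx2.5 differed by −0.34 (exact permutation p = 0.2) and the ratio of myh6 to myh7 by −0.43 (exact permutation p = 0.4). Against the summed counts of a list of other heart sarcomere genes in place of myl7, the differences of gata4 and tbx5a were −0.81 and −0.15 (exact permutation p = 0.3 and 0.6), and their genotypes overlapped. Those of nppa and nppb were 1.04 and 1.34 (exact permutation p = 0.1 each), that of myh6 was −0.37 (exact permutation p = 0.7), and those of myh7 and nkx2.5 changed sign to 0.06 and 0.26 (exact permutation p = 0.7 and 0.5). That sum was itself lower in mutants, by a mean log2 difference of −0.46, which raises each ratio to it. It was 12920, 15598 and 12840 in wild-type pools 1, 2 and 3, against 8735, 13717 and 8291 in mutants. The titin genes ttn.1 and ttn.2, which skeletal muscle also uses, are part of that sum, with a log2 fold change of −0.85 each. Their part in these ratios was not tested. Counts of a gene per length were not compared between genes, since transcript lengths were not used here.

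**Figure D4:**
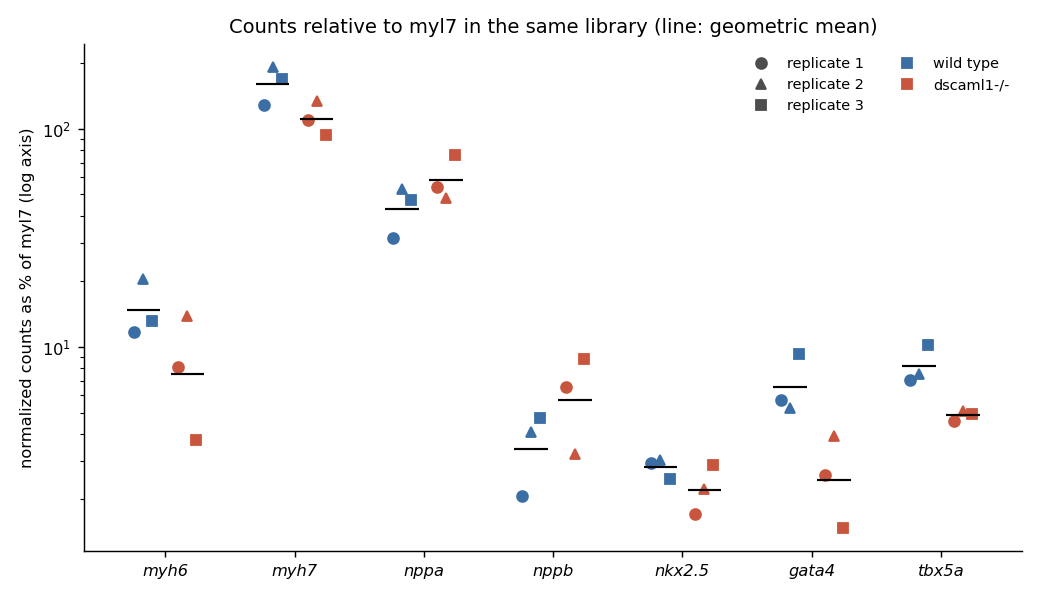
Normalized counts of 7 genes (x axis) as a percentage of myl7 in the same library (y axis, log scale), by genotype and replicate number, with the geometric mean as a line. The mutant libraries lie between 4.58% and 5.09% for tbx5a, below the 7.06% to 10.2% of the wild-type libraries. In replicate 2 the tbx5a counts were 74.7 in the mutant and 76.7 in wild type, and those of myl7 1467 and 1022. Against the summed sarcomere list the tbx5a difference was −0.15 (exact permutation p = 0.6). The share of all genes not overlapping relative to myl7 was not computed.

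Other genes of the heart were read from lists of known roles, with no set test. Of the 17 other heart sarcomere genes tested, 0 were called with limma, and 7 had an unadjusted p under 0.05, all lower in mutants. Of all genes tested, 7.90% were lower at that p. Of the 17, 15 had a log2 fold change below 0 and 2 above, in a range from −0.85 to 0.08. The median was −0.33, beside 0.01 over all genes tested and −0.31 over 12 skeletal muscle genes. The lowest p values were those of the giant spring proteins ttn.2 and ttn.1 (log2 fold changes −0.85 and −0.85, adjusted p = 0.109 and 0.115 from limma) and of ldb3a, a protein of the Z-disc (−0.43, adjusted p = 0.185 from limma). In 4 of the 17 the genotypes did not overlap, with the mutant pools lower, beside 4.55% of all genes tested. They were ttn.1, ttn.2, ldb3a and the myosin heavy chain gene myh7bb, named after its values were seen, which had 471, 474 and 444 normalized counts in wild type and 328, 423 and 305 in mutants. In the rest of the 17 the genotypes overlapped, with log2 fold changes from −0.59 for myh7l to 0.08 for cmlc1. Skeletal muscle also uses the titin genes, and its part in the counts of this list was not tested.

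Of 14 other cardiac transcription factor genes tested, 0 were called with limma and 4 had an unadjusted p under 0.05, all lower in mutants. Of all genes tested, 7.90% were lower at that p. gata6, a relative of gata4, had 490.3, 288 and 528 normalized counts in wild-type pools 1, 2 and 3, against 388, 116 and 302 in mutants, a log2 fold change of −0.81 (adjusted p = 0.145 from limma). Unlike gata4, gata6 was lowest in replicate 2 of both genotypes. mef2ca, a muscle regulator, had a log2 fold change of −0.51 (adjusted p = 0.153 from limma) and tbx20, a T-box gene of the heart, −0.62 (adjusted p = 0.213 from limma). The median of the list was −0.04. tbx5b, the paralog of tbx5a, had 4.07, 4.61 and 1.77 normalized counts in wild type and 8.45, 5.75 and 8.83 in mutants. Its mutant pools were thus all higher at a low level (log2 difference 0.997, adjusted p = 0.379 from limma). Of all genes tested, 5.07% did not overlap in that direction. In 2 genes of the list, mef2ca and gata5, the mutant pools were all lower, beside 4.55% of all genes tested. gata5 had a log2 fold change of −0.57 (adjusted p = 0.262 from limma). Both tbx5b and gata5 are named after their values were seen. The list for the natriuretic peptide system other than nppa and nppb had 7 tested genes, of which nprl3 (log2 fold change 0.00) encodes a GATOR1 subunit and is not known as part of that system. Of the 7, 0 were called with limma and 1 had an unadjusted p under 0.05. This was npr1b, which encodes a guanylyl cyclase receptor for natriuretic peptides, with 281, 86.5 and 279 normalized counts in wild type and 227, 74.1 and 128 in mutants, a log2 difference of −0.55 (limma, adjusted p = 0.344). The receptor genes npr2 and npr1a had −0.23 and −0.22 (adjusted p = 0.432 and 0.492 from limma).

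Of 12 genes of heart calcium handling and ion channels, 0 were called with limma. The lowest p was that of the calcium store protein casq2 (log2 fold change −0.35, adjusted p = 0.217 from limma), followed by the sodium channel scn5lab (−0.41, adjusted p = 0.471) and the sodium-calcium exchanger slc8a1a (−0.43, adjusted p = 0.509), all from limma. Of 12 genes of the endocardium, valves and epicardium, 0 were called and 4 had an unadjusted p under 0.05, all lower in mutants. The share of all genes tested that were lower at that p was 7.90%. The lowest p values were those of aldh1a2, an enzyme of retinoic acid synthesis (−0.63, adjusted p = 0.142), notch1b, a receptor of the endocardium (−0.44, adjusted p = 0.158) and wt1a, a factor of the epicardium and kidney (−0.84, adjusted p = 0.176), all from limma.

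**Figure D5:**
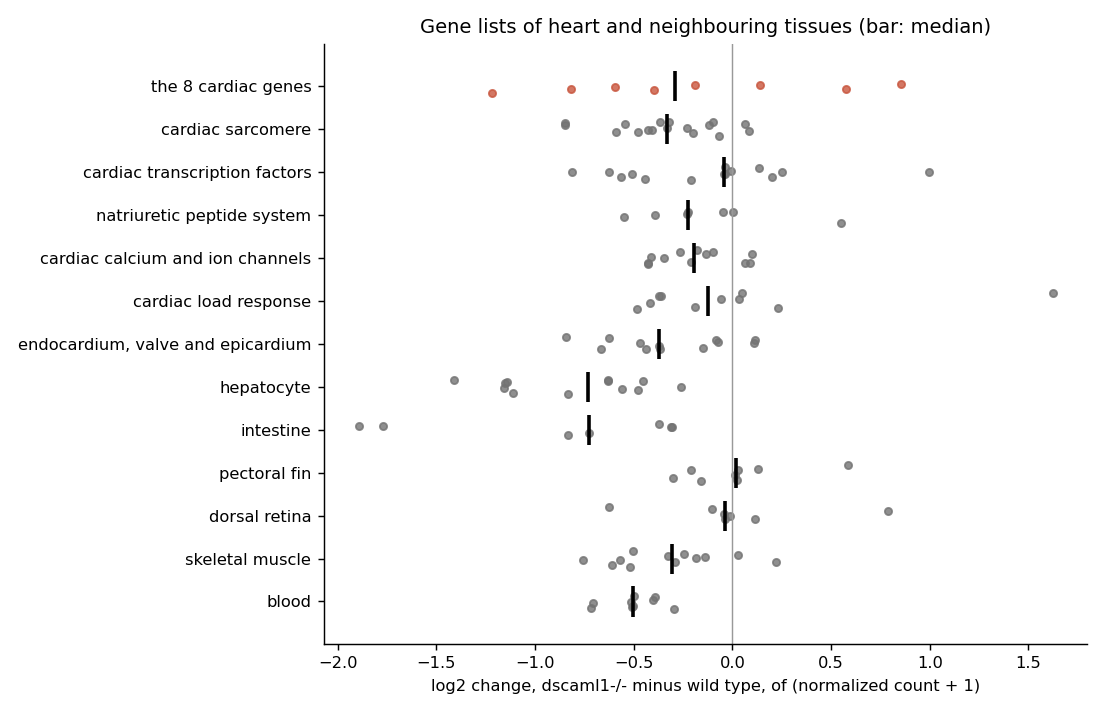
Log2 change of normalized count + 1, mutant minus wild type (x axis), for the 8 genes (red) and each tested gene of 12 lists (grey, y axis), with medians as bars. The hepatocyte and intestinal medians both lie at −0.73, and the pectoral fin median lies at 0.02.

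Since gata4 and tbx5a are also known outside the heart, lists of those tissues were read beside them. With limma, 0.0751% of all genes tested were called lower, and 7.90% were lower at an unadjusted p under 0.05. Of 12 hepatocyte genes, 4 were called lower in mutants with limma, namely apoba, tfa, cp and serpina1, and the list's median log2 fold change was −0.73. At an unadjusted p under 0.05, 11 of the 12 were lower and 0 higher. In 5 of the 12 the genotypes did not overlap, with the mutant pools lower, beside 4.55% of all genes tested. The lipoprotein gene apoba, the transferrin gene tfa and the ceruloplasmin gene cp had log2 differences of −1.41, −1.16 and −1.14, each with an adjusted p of 0.0226 from limma, and the protease inhibitor gene serpina1 had −0.83 (adjusted p = 0.0390 from limma). The summed counts of the 12 genes were 72809, 48623 and 71675 in wild-type pools 1, 2 and 3, against 39754, 22093 and 44044 in mutants. Within each genotype the sum was lowest in replicate 2. The 7 intestinal genes tested had a median of −0.73 with 0 called by limma and 5 at an unadjusted p under 0.05, all lower, among them vil1 (log2 fold change −1.89, adjusted p = 0.119), cdx1b (−1.77, adjusted p = 0.185) and apoa1b (−0.83, adjusted p = 0.110), all from limma. Of 8 pectoral fin genes, 0 had an adjusted or an unadjusted p under 0.05 in limma, and their median was 0.02. The list for the dorsal retina had 7 genes, of which vax2 is known in the ventral retina and not as a dorsal gene. Of the 7, 0 were called with limma and 1, aldh1a2, had an unadjusted p under 0.05, and their median was −0.04. Of 12 skeletal muscle genes, 0 were called with limma, 6 had an unadjusted p under 0.05, all lower, and the median was −0.31. Of the 9 red blood cell genes, 0 were called with limma, 2 had an unadjusted p under 0.05, both lower, and the median was −0.50. The part of these tissues in the counts of gata4 and tbx5a was not tested.

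Correlations among the 8 genes are given as descriptions over 6 libraries, which share genotypes and replicate numbers. The log2 values of myh6 and myh7 had a Pearson correlation of 0.97, those of gata4 and tbx5a 0.92, and those of nppa and nppb 0.78. nppb and gata4 had −0.66. Among 18675 genes averaging 20 or more, the most similar to each of the 8 had correlations from 0.990 to 0.9996. They were ncapg2 (a condensin subunit) for myh6, ccnb3 (cyclin B3) for myh7, mc1r (a melanocortin receptor) for myl7, srsf6b (a splicing factor) for nppa, pax6a for nppb, gsx2 for nkx2.5, col7a1 (collagen VII) for gata4 and foxo1b for tbx5a. col7a1 had 1840, 2108 and 1888 normalized counts in wild-type pools 1, 2 and 3, against 951, 2044 and 673 in mutants, so that mutant replicates 1 and 3 were low and mutant replicate 2 was not. Correlations over 6 libraries say nothing of shared function.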

How the data were processed

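Polyadenylated RNA of 6 pools was sequenced as strand-specific libraries. The deposited signal values are gene read counts that the authors had divided by a size factor for each library, here called normalized counts. The processing notes name TopHat2, HISAT2, HTSeq and GRCz11, with no role or version for any of them. Beside these, the deposited table holds the authors' own means, fold changes and p-values, and 3 shorter tables hold genes chosen by them. None of these were used. No column of per-sample values was left unmapped (0).

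Dividing each value by what 1 read is worth recovered whole reads, to a tolerance of 0.001 reads, for 100% of values. The test was limma 3.58.1 (R 4.3.3, mean-variance trend) on log2(normalized count + 1) over 21302 genes with a mean of at least 5, a scale that understates the change of low genes, with genotype and a term for replicate 2. That term follows earlier processing of these data and is not in the study's methods. The methods name DESeq2's likelihood ratio test, which was run with edgeR as an alternative because the values are not counts. Both were run on recovered reads and carried the replicate 2 term. The DESeq2 fit therefore holds a term that the study's methods do not name. limma called 5 genes higher and 16 lower at an adjusted p under 0.05. edgeR 4.0.16 called 4 and 14 and DESeq2 1.42.0 called 193 and 388. With the replicate number as a block limma called 10 and 37. Libraries were paired by the replicate number in their sample titles. Libraries of equal number deviated together from their genotype means (correlations 0.65, 0.86 and 0.70). Wild-type pool 3 with mutant pool 1 gave 0.50 and wild-type pool 1 with mutant pool 3 gave 0.35. Positive values among replicates 1 and 3 thus also came from unequal numbers. The deviations within a genotype cancel out and replicate 2 lay apart in both genotypes, so these correlations are a weak check of the pairing. No label gives a shared clutch or date. The methods call the pools biological replicates, and p-values of the main fit measure the spread between them that the replicate 2 term leaves. The limma, edgeR and DESeq2 fits were also run on simulated counts. Their spread between pools was set and not taken from these data, so that run does not show that the tests suit these pools.

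The 8 genes and the lists were chosen with earlier results of these data known. The text names all 8, up to 3 genes per list with the lowest p, every list gene called, and genes most correlated with each of the 8. myh7l is named as the neighbour of myh7, and myh7bb, tbx5b, gata5, nprl3 and vax2 are named outside the rule. Symbols came from the deposited table. The gene name table held all 8 identifiers, 4 under the same spelling, and pairs the one called myh7 here with MYH6. Alternatives were other pseudocounts, filters, scalings, tests and left-out libraries. Other steps used Python 3.11.15 with scipy 1.17.1, numpy 2.4.6, matplotlib 3.10.9 and pandas 2.3.3.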

Additional observations from a re-analysis of the deposited data

How the results depend on the processing

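None of the 8 genes was called between genotypes under any of the 16 alternatives, 6 of which leave out 1 library, with limma, edgeR or DESeq2. Of 224 log2 changes of single genes under alternatives, between genotypes, between replicate numbers and for their interaction, 218 kept their sign and their side of the threshold. The exceptions were myl7, which became −0.055 without replicate 2 of either or both genotypes and −0.02 without the wild-type pool of replicate 3, and nkx2.5, which became 0.11 and 0.08 when replicate 1 of wild type and of mutants was left out. Leaving out 1 library gave log2 fold changes from −1.88 to −0.85 for gata4, −1.21 to −0.43 for myh6, −0.60 to −0.24 for myh7, −0.87 to −0.45 for tbx5a, 0.37 to 0.73 for nppa, 0.61 to 1.19 for nppb, −0.055 to 0.40 for myl7 and −0.42 to 0.11 for nkx2.5. Leaving out a replicate 2 library leaves its partner to its own term, so the value is then that of replicates 1 and 3. Part of the agreement was fixed by the design. The genotype log2 changes with no replicate term, with the replicate block and with no filter equal those of the main fit (−0.82 for myh6 in each). The ratio differences with the replicate block also equal the main ones. A fit that called 0 of all genes could call none of the 8. The 4 genes called between replicate 2 and the others were called under all 7 alternatives. Of 71 ratio differences under alternatives 69 kept their sign, and against the summed sarcomere list those of myh7 and nkx2.5 were 0.063 and 0.26.

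Over all genes, the 5 higher and 16 lower calls of limma became 0 and 0 with no replicate term (382 and 409 at an unadjusted p under 0.05), 0 and 0 without replicate 2 of both genotypes (1207 and 1343), 10 and 37 with the replicate block, and 193 and 388 with DESeq2 on the recovered reads. Leaving out 1 library gave 0 to 1 higher and 0 to 11 lower. The block changed no call of the 8 genes. The cause of these differences was not tested. Depth limits nkx2.5, gata4 and nppb most, with as few as 18, 15 and 34 reads in a library. The intervals of the main fit cover only the spread between pools that the replicate 2 term leaves. With no replicate term the standard error of myh6 was 0.75 in place of 0.34, and its interval was −2.63 to 0.997. Of the 8 genes, only nppb then had an interval without 0 (0.06 to 1.65).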

Other observations

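Genes that are known, chiefly in mammals, to respond to load on heart muscle were read as a further list of 10 tested genes. With limma 0 were called, and at an unadjusted p under 0.05 1 was higher and 1 was lower. Of all genes tested, 6.10% were higher and 7.90% lower at that p. The median log2 fold change was −0.12, beside 0.01 over all genes tested. The higher gene was ankrd1b, which encodes a muscle ankyrin repeat protein, with 277, 2.31 and 138 normalized counts in wild-type pools 1, 2 and 3, against 886, 4.47 and 765 in mutants. limma gave ankrd1b a log2 fold change of 1.62 with a standard error of 0.35 (adjusted p = 0.141). In replicate 2 of both genotypes ankrd1b was close to absent, whereas nppa was highest there in each genotype. The summed counts of the 12 skeletal muscle genes were also low there, at 163596 in wild type and 105035 in mutants. They were 288441 to 319961 in the remaining libraries. The part of skeletal muscle in the ankrd1b counts was not tested. xirp2a, an actin-binding protein of muscle, had a log2 fold change of −0.48 (adjusted p = 0.266 from limma) and nfatc2a −0.42 (adjusted p = 0.360 from limma).

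gata4 and myh6 both lie on chromosome 20 of GRCz11, with 609.6 kb between them, and none of the 8 genes is on chromosome 15, where dscaml1 lies. The annotated span of myh6 is 5.93 kb and that of myh7 is 17.1 kb, and whether the shorter model of myh6 holds the whole gene was not tested.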
